A study of Mus musculus with 3 samples.

Results

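The 10 genes examined here encode transcription factors listed together under neural stem cell identity, although Sox4 and Sox11 act mainly in cells committed to the neuronal fate. Sox2, Sox4, Sox9 and Sox11 are of the Sox family, and Nfia, Nfib and Nfix of the nuclear factor I (NFI) family. Foxo1 and Foxo3 are of the forkhead box O (FoxO) family, and Nr2e1 is an orphan nuclear receptor gene. The 10 were chosen by name from the 22028 protein-coding genes of GENCODE M21 on mouse genome build GRCm38/mm10. For each gene, Setd1a peaks were taken within 3000 bp of any annotated transcription start site (TSS), the promoter window, and in the gene body. These intervals held 9 of the 6969 peaks in the deposited list.

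Setd1a CUT & RUN was performed on neural progenitor cells labelled WT, derived from the dentate gyrus of 7 to 8-week-old Hopx-CreERT2::Setd1a fl/fl::H2B-GFP mice, a line in which the Hopx locus drives an inducible Cre. All libraries thus came from cells carrying the floxed Setd1a alleles. The cells were held as adherent cultures in medium without EGF to induce quiescence, with FGF2 and BMP4 each at 20 ng/ml, and were collected at day 5. In the paper's culture scheme, lentivirus carrying GFP or Cre-GFP was given at day 2, and WT cultures for RNA-seq expressed GFP alone. Whether the CUT & RUN cultures received the GFP virus is not stated in the paper. There were 2 Setd1a libraries from independent cultures and 1 rabbit IgG library. In CUT & RUN an antibody on permeabilized cells or nuclei brings a nuclease to the bound protein, and the DNA cut free beside it is sequenced. The data consisted of 1 list of the intervals found in both Setd1a libraries, without height, enrichment or read number. The spread between replicates and the sequencing depth were therefore unknown, a missing peak means absence from this list only, and the list holds no measure of expression.

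Setd1a is the catalytic subunit of a COMPASS complex that methylates lysine 4 of histone H3, a mark of active promoters, and its complex contains the CpG-binding protein Cfp1. Sox2 sustains self-renewal of neural stem cells, whereas Sox4 and Sox11 act mainly in cells committed to the neuronal fate, and Sox9 in neural stem cells and astrocytes. Nfia and Nfib are known for the switch to glial production and Nfix for stem cell quiescence. Foxo1 and Foxo3 are restrained by insulin and AKT signalling and are known for preserving the stem cell pool, and Nr2e1 (also called Tlx) keeps adult neural stem cells undifferentiated.

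A promoter peak was found at 6 of the 10 genes: Sox2, Nfia, Nfib, Foxo1, Foxo3 and Nr2e1. No peak lay in the promoter window or the body of Sox4, Sox9, Sox11 or Nfix. The share of 60% had a 95% Wilson interval of 31.3% to 83.2%, which covers counting error over genes only. The 10 genes were chosen with earlier results of these data known, so this interval does not test their share against that of other genes. Among all protein-coding genes 5049 had a promoter peak, or 22.9%. Of the 9 peaks, 7 were promoter peaks, and the other 2 lay in the bodies of Nfib and Foxo1, so counting gene bodies added no further gene. Of all protein-coding genes 26.1% had a peak in the promoter window or the gene body.

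Over all protein-coding genes the shares differed with the bases around a start and with gene length, so both are given beside these counts. Of the 10 genes, 9 had a CpG-rich main start, defined as a GC content of at least 55% and a CpG observed to expected ratio of at least 0.65 within 500 bp on either side. The main start was the most upstream TSS of the protein-coding transcripts in the basic set of GENCODE. Only Sox4 did not, at 53.0% GC and a ratio of 0.80. All 6 genes with a promoter peak were among these 9, and 43.8% of the 7933 protein-coding genes with such a start had a promoter peak. CpG content did not order the genes by whether they had a peak: the start of Nfix, without a peak, had the highest GC content of the 10 (74.8%) and the highest ratio (1.12), and that of Nr2e1, with a peak, had 55.8% and 0.70. Nfia, Nfib, Nfix, Foxo1 and Foxo3 are longer than 80 kb, and 4 of these 5 had a peak in the promoter window or body, against 40.0% of the 3186 protein-coding genes of at least 80 kb.

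**Figure D1:**
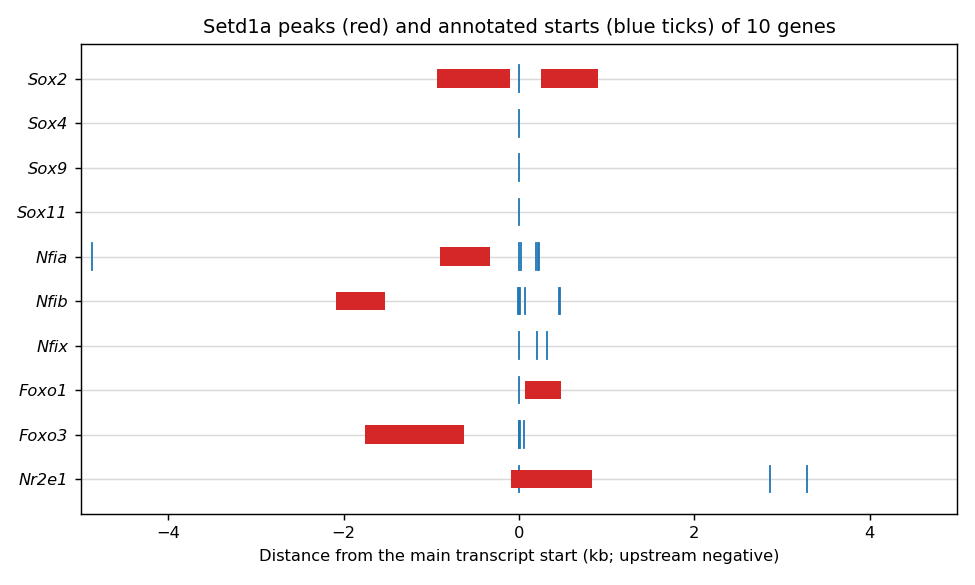
Position of each Setd1a peak (red bars, drawn to width) within 5 kb of the main transcript start of the 10 genes, in kb along the direction of transcription, with annotated starts as blue ticks. Peaks lie upstream of the start at Nfia, Nfib and Foxo3, downstream at Foxo1, on both sides at Sox2 and across the start at Nr2e1. Sox4, Sox9, Sox11 and Nfix have none.

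Most of the promoter peaks stood beside a start rather than on it. Of the 5049 protein-coding genes with a promoter peak, 71.2% had one that overlapped an annotated TSS. Among the 6 genes here this was so only for Nr2e1. The distances from the TSS to the nearest edge of the peak were 64 bp at Foxo1, 104 bp at Sox2, 332 bp at Nfia, 633 bp at Foxo3 and 1516 bp at Nfib. Of these distances that at Nfib was the closest to the limit of 3000 bp. Among the genes without a promoter peak, the shortest distance from a start to a peak was 13690 bp, at Sox11.

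Sox2, a SoxB1 factor, had peaks on both sides of its single GENCODE start. The gene is short (chr3:34650405-34652461, plus strand, 2057 bp) and lies within the long non-coding gene Sox2ot, which both peaks therefore overlapped too. The upstream peak (chr3:34649470-34650301, 832 bp) ran from -935 to -104 relative to the start and was wider than 84.9% of all peaks. The downstream peak (chr3:34650651-34651309, 659 bp) ran from 246 to 904 bp and lay in the coding exon. The part of each peak centre without untranslated sequence is shown for the base composition of both flanks. It is given 5′ to 3′ on the plus strand of GRCm38 with every CG dinucleotide in capitals, as in all sequences below.

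Sox2 upstream peak, chr3:34649736-34649994: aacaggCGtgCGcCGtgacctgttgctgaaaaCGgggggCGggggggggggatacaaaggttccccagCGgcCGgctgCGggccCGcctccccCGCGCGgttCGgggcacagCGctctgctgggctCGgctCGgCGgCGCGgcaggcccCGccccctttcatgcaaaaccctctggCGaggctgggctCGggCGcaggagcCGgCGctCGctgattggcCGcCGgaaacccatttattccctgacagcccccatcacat

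Sox2 downstream peak, chr3:34650831-34651130: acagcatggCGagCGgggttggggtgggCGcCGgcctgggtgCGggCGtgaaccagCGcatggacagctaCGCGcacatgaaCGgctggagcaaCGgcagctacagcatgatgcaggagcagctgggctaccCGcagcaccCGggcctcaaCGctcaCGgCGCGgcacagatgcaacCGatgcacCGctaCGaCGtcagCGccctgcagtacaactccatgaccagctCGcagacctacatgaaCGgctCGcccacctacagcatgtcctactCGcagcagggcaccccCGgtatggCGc

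Both stretches held 28 CpG dinucleotides, the first over 259 bases and the second over 300. The upstream one also held both GC boxes (GGGCGG, here once as its complement) and the single CCAAT box found in the centre of that peak, and the coding one held none of the motifs searched. The 349 bp between the peaks, with the GENCODE start inside, were richer in GC than either of them: 74.2% in the gap, 59.9% in the upstream peak and 65.7% in the downstream one. The gap held 46 CpGs at an observed to expected ratio of 0.96. A TSS in a gap of at most 1000 bp between peaks occurred at 121 of all 22028 protein-coding genes, or 0.549%, and at Sox2 alone of the 10 here. By definition these 121 genes are among the 5049 with a promoter peak. At least 2 promoter peaks were found at 9.35% of those 5049 genes, and at Sox2 alone of the 6 here. The position of the start depends on the annotation. RefSeq places the Sox2 start at position 34649995, inside the upstream peak, so the peaks stand on either side of the GENCODE start but not of the RefSeq one.

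The other 3 Sox genes had no peak in the promoter window or body, and the distances to the nearest peak differed widely. Each has 1 annotated start. Sox11 (chr12:27334264-27342574, minus strand), a SoxC factor, had its nearest peak 13690 bp from the start and 5380 bp past the gene's 3′ end (chr12:27328546-27328884, 339 bp). Sox9 (chr11:112782224-112787760, plus strand), a SoxE factor, had one 29037 bp from the start and 23501 bp past the 3′ end (chr11:112811261-112811900, 640 bp). Sox4 (chr13:28948919-28953713, minus strand), the SoxC relative of Sox11, had none within 417212 bp, where a 302 bp peak lay inside Cdkal1. The peak past Sox11 had no other protein-coding or non-coding TSS closer to it than that of Sox11, whereas the one past Sox9 lay 12253 bp from the non-coding gene Gm11681. The centre of the peak past Sox11, on the gene's minus strand, is shown beside the Sox2 stretches as an intergenic peak of low CpG content.

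Peak past Sox11, chr12:27328566-27328865: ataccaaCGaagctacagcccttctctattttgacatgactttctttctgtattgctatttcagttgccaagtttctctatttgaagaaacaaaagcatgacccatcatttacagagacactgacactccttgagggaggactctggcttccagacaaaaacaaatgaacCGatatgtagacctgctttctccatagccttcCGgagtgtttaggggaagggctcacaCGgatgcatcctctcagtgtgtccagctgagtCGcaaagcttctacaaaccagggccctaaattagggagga

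It held 5 CpGs in 300 bases, against 28 in the Sox2 coding stretch of the same length and a median of 16 over the same window of all 6950 peaks on assembled chromosomes. Over whole peaks the observed to expected ratio was 0.29 past Sox11, 0.44 past Sox9 and 0.18 at Cdkal1, below the median of 0.67 over all these peaks. Of these 6950 peaks 4889 were promoter peaks, and no median was taken over the others. The starts of Sox9 and Sox11 themselves were CpG-rich, at 62.6% and 66.7% GC. All 4 Sox genes stand alone: the nearest protein-coding gene was 238 kb from Sox4, 457 kb from Sox9, 569 kb from Sox2 and 854 kb from Sox11, where the median over protein-coding genes was 4.40 kb. Within 100 kb of these genes the list held 2 peaks at Sox2, 1 each at Sox9 and Sox11 and none at Sox4.

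**Figure D2:**
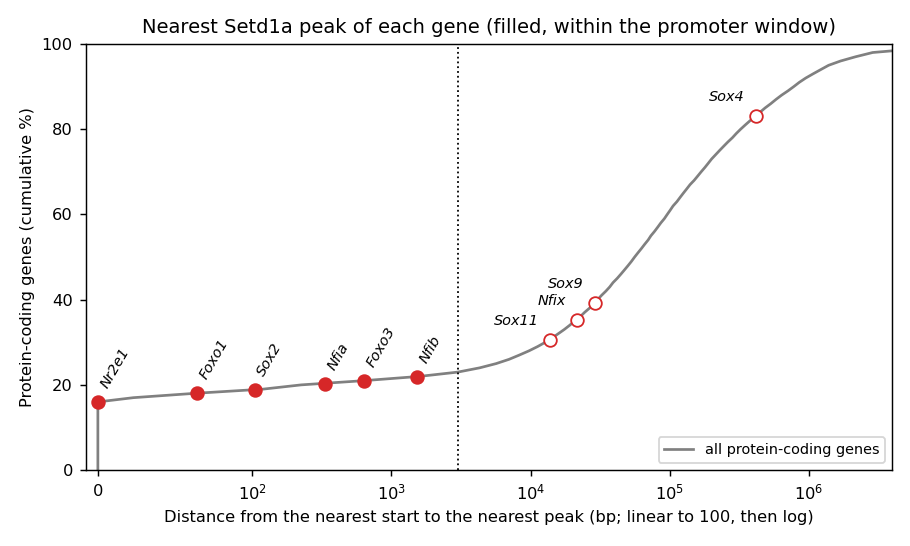
Distance in bp from the nearest annotated start to the nearest Setd1a peak for the 10 genes (circles, filled where a peak lies within the dotted 3000 bp limit), placed on the cumulative percentage of all protein-coding genes (grey line). The 4 open circles run from 13690 bp at Sox11 to 417212 bp at Sox4, and only Sox4 lies beyond the median of 56.0 kb.

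Compared with all protein-coding genes, Sox11, Nfix and Sox9 were not far from a peak. The median distance over 21951 protein-coding genes was 56.0 kb, with quartiles of 5.66 and 228 kb. Sox4 was farther from a peak than 83.1% of them, Sox9 than 39.4%, Nfix than 35.4% and Sox11 than 30.6%.

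The 3 NFI genes are long and have 8 distinct starts each, and none of these 24 starts was overlapped by a peak. Their factors bind DNA as dimers and are expressed together in glia and neural stem cells. Nfia (chr4:97772734-98118874, plus strand, 346 kb) had 1 peak (chr4:97776708-97777276, 569 bp) at -900 to -332 relative to the nearest start, and 5 of its 8 starts lay within 3000 bp of it. The peak lies in an intron of the longer transcript Nfia-208, which begins 3974 bp away and outside the window, and in the neighbouring gene E130114P18Rik on the minus strand, annotated as protein-coding, whose nearest start was 772 bp from the peak. This one peak was counted for both genes.

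Nfib (chr4:82290173-82705750, minus strand, 416 kb) had peaks beside its internal cluster of starts and none near its most upstream one. The promoter peak (chr4:82507295-82507860, 566 bp) ran from -2081 to -1516 relative to the nearest start, in an intron of the transcript Nfib-212, and 6 of the 8 starts had it within 3000 bp. The start of Nfib-212 itself, at the 5′ end of the gene, was 59467 bp from any peak. The second peak (chr4:82513272-82513554, 283 bp) lay in the same intron, 7493 bp from the nearest Nfib start, and overlapped the antisense gene Gm11266. The start of Gm11266 was only 156 bp from the Nfib promoter peak, so that each of these 2 peaks was nearer to a start of Gm11266 than to one of Nfib.

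The peak centres of Nfia and Nfib are shown because 2 of these 3 were the promoter peaks lowest in GC among the 10 genes, while the Nfib body peak was among the highest. Nfia is given on the plus strand and Nfib on the minus strand.

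Nfia promoter peak, chr4:97776843-97777142: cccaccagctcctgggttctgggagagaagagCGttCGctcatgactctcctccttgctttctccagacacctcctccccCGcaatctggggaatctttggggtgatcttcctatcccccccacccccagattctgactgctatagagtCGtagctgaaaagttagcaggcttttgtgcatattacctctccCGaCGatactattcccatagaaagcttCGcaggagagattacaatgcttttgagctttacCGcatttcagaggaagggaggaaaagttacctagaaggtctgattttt

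Nfib promoter peak, chr4:82507428-82507727: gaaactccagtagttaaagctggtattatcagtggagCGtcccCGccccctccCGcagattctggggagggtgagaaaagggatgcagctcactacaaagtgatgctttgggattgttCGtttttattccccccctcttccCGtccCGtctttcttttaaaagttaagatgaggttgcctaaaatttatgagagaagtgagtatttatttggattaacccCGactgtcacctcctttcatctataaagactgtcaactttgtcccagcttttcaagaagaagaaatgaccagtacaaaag

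Nfib body peak, chr4:82513272-82513554: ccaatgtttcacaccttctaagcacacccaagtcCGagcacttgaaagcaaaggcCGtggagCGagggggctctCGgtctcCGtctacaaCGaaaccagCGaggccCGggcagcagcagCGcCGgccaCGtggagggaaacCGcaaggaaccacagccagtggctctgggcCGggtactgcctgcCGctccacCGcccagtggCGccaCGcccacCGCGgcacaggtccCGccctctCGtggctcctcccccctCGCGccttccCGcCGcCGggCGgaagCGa

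The Nfia and Nfib promoter stretches held 8 and 7 CpGs in 300 bases, and the Nfib body peak 28 in 283. GC content over the whole peaks was 50.8% at Nfia, 46.5% at the Nfib promoter peak and 68.9% at the Nfib body peak. Only 10.9% of all promoter peaks were lower in GC than that of Nfia, and only 4.89% were lower than that of Nfib. At Nfib the CpG-rich peak was therefore the one farther from the gene's own starts. The Nfib promoter stretch was the only one of the 9 with a TATAAA, and the body peak the only one with a CACGTG.

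Nfix (chr8:84699876-84800344, minus strand, 100 kb) had no peak along its length, in contrast to Nfia and Nfib, with which it shares the family. The nearest was 21416 bp from an internal start and 13576 bp past the 3′ end (chr8:84685979-84686300, 322 bp), within Nacc1 and 7 bp from a start of Trmt1. On the 5′ side the first peak lay at Calr, which encodes the chaperone calreticulin, 45949 bp from the most upstream start of Nfix (chr8:84846293-84847423, 1131 bp). Nfix lies in a dense region: 13 protein-coding genes came within 100 kb of it, 6 of these (Cacna1a, Calr, Farsa, Ier2, Nacc1 and Trmt1) had a promoter peak, and the list held 7 peaks there. The list thus held peaks around Nfix but none in it, whereas Sox4 had neither a peak nor another protein-coding gene within 100 kb.

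**Figure D3:**
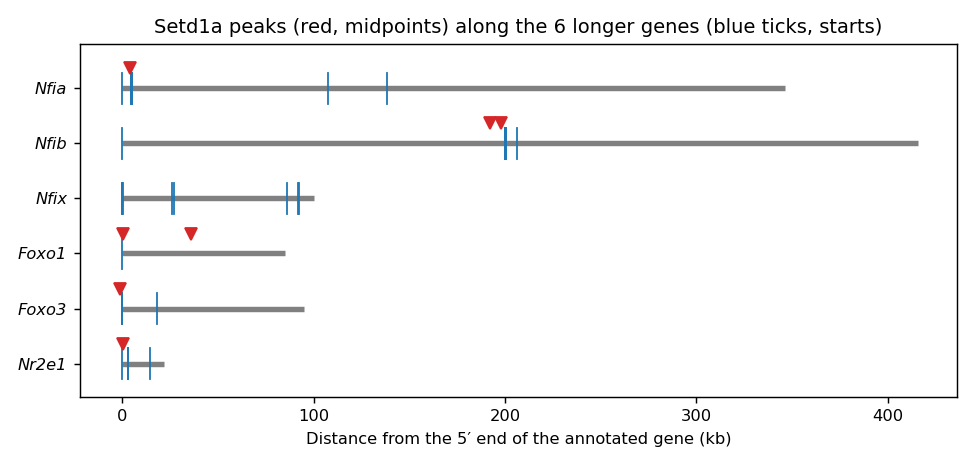
The 6 genes longer than 20 kb, drawn in kb from their annotated 5′ end (grey bars), with annotated starts as blue ticks and Setd1a peak midpoints as red triangles. The 2 Nfib peaks stand next to its internal starts, 1 Foxo1 peak lies about 36 kb into the gene, and Nfix has no peak.

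Both FoxO genes had a promoter peak, on opposite sides of the start. Foxo1 (chr3:52268336-52353221, plus strand, 84.9 kb) has a single start, and its promoter peak (chr3:52268400-52268815, 416 bp) ran from 64 to 479 bp downstream, over the 5′ UTR and the first coding bases and over the antisense gene Gm20402. It was the most CpG-dense of the 9 peaks, with 62 CpGs, 14.9 per 100 bp, at 74.5% GC. Its observed to expected ratio of 1.08 was above that of 98.2% of all peaks. No sequence is shown for it, since most of its centre is annotated as 5′ UTR.

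The second Foxo1 peak (chr3:52304151-52304394, 244 bp) lay in an intron, 35815 bp downstream of the Foxo1 start and 21910 bp from a start of the gene Gm38034. It was the opposite of the promoter peak in composition. It held no CpG, had 36.5% GC, was wider than only 3.47% of all peaks, and 36.5% of its bases were soft-masked as repeats. It is shown whole, on the plus strand, as the sequence without any capital.

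Foxo1 intronic peak, chr3:52304151-52304394: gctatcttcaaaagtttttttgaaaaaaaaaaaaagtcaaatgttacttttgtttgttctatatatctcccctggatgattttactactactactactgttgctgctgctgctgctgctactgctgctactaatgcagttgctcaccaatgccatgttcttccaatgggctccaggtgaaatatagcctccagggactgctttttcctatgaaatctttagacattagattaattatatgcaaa

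A run of repeated trinucleotides stands near the middle of it. This was the only peak of the 9 with AAAGTCA, the half-site that NR2E1 is known to recognise, in the 300 bp around its midpoint. It also held CCAAT at 2 places.

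Foxo3 (chr10:42181841-42276755, minus strand, 94.9 kb) had the widest of the 9 peaks, 1127 bp, wider than 95.0% of all peaks. The peak (chr10:42277388-42278514) ran from -1759 to -633 relative to the most upstream start, overlapped no annotated gene, and had 4 of the gene's 5 starts within 3000 bp. It held 108 CpGs at 63.4% GC and an observed to expected ratio of 0.95. Its centre is shown on the minus strand as the one promoter peak of the 9 that lies outside every annotated gene.

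Foxo3 promoter peak, chr10:42277802-42278101: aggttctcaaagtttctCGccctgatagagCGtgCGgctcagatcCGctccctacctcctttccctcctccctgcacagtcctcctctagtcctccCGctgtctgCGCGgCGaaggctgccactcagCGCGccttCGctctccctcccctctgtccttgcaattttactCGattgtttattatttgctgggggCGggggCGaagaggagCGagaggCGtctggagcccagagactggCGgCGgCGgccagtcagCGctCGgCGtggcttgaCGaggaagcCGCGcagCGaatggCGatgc

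This stretch held 27 CpGs, 1 GC box and 1 ACAAT, the core recognised by Sox factors. GTAAACA, the forkhead motif, was in none of the 9 centres.

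Nr2e1 (chr10:42561963-42583632, minus strand, 21.7 kb), the tailless-class nuclear receptor, was the gene whose start was covered. Its peak (chr10:42582801-42583719, 919 bp) ran from -87 to 831 bp, across the 5′ UTR, the first coding exon and part of an intron. The peak overlapped 1 of 4 starts and had 3 within 3000 bp. The neighbouring gene Ostm1, a gene known from osteopetrosis, starts on the opposite strand 190 bp from the Nr2e1 start and 103 bp from the edge of the peak, so this peak was counted for both genes. The 87 bases of the peak upstream of Nr2e1, between these divergent starts, are shown on the minus strand.

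Nr2e1 peak upstream of the start, chr10:42583633-42583719: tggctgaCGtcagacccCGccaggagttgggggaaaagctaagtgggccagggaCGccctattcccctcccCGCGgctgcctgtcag

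They held 5 CpGs at 66.7% GC. The whole peak had 63.1% GC and a ratio of 0.72. Nr2e1 and Foxo3 lie within 500 kb of each other. Of the 3 protein-coding neighbours of Nr2e1 within 100 kb (Afg1l, Ostm1 and Snx3), all had a promoter peak, and Afg1l, the single one within 100 kb of Foxo3, also had one.

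**Figure D4:**
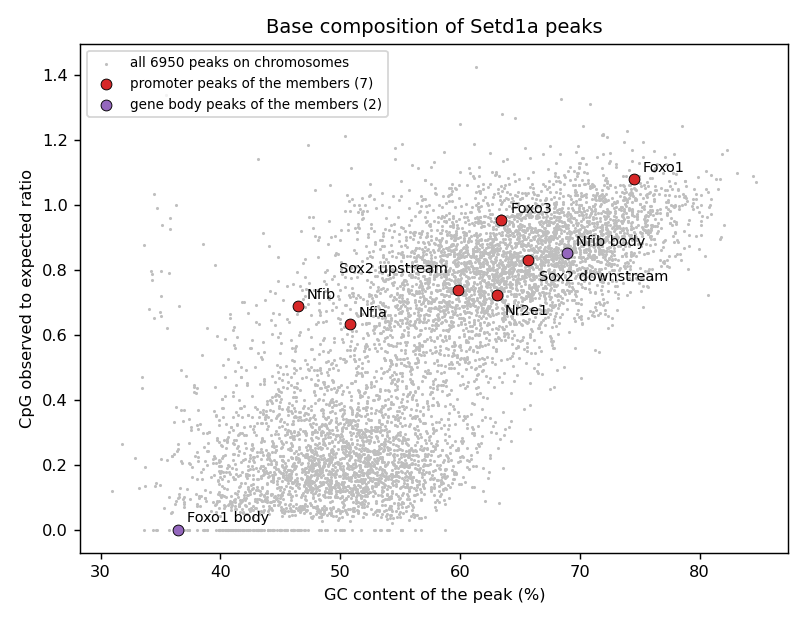
GC content (%) against the CpG observed to expected ratio for all 6950 peaks on assembled chromosomes (grey), the 7 promoter peaks of the 10 genes (red) and their 2 gene body peaks (purple). The Foxo1 pair marks the lowest and the highest of the 9 peaks on both axes, from 36.5% GC without a CpG to 74.5% GC at a ratio of 1.08, and the promoter peaks of Nfia and Nfib lie at the low GC side.

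Set side by side, the 7 promoter peaks ranged from 416 to 1127 bp in width, where the median of all 4889 promoter peaks was 507 bp. All but that of Foxo1 were wider than this median. GC content ranged from 46.5% to 74.5% around a median of 62.2% for promoter peaks, and 4 of the 7 exceeded it: the downstream one at Sox2 and those at Foxo1, Foxo3 and Nr2e1. The observed to expected ratio ranged from 0.63 at Nfia to 1.08 at Foxo1, with a median of 0.79 over promoter peaks.

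Short motifs were searched on both strands in the 300 bp around the midpoint of each peak, called its centre. At the Foxo1 and Nfib body peaks, of 244 and 283 bp, this window reached past the peak edges. No motif of the list contains another. GGGCGG was present in 5 of the 9 centres (Sox2 upstream, both of Nfib, the promoter peak of Foxo1, and Foxo3), in 44.7% of all peaks and in 59.9% of all promoter peaks. Of the 7 promoter peaks here 4 held it. CCAAT was in 5 of 9 (Sox2 upstream, Nfib body, both of Foxo1, and Nr2e1), in 33.2% of all peaks and in 32.1% of promoter peaks. Of the 7 promoter peaks 3 held it. ACAAT was in 3 of 9 (Nfia, Nfib promoter and Foxo3), all of them promoter peaks, against 23.4% of all peaks and 16.4% of promoter peaks.

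The rarer motifs were found in 1 centre or none. CACGTG and TATAAA were each in 1, both at Nfib as given above, and in 7.45% and 6.03% of all peaks (8.69% and 4.32% of promoter peaks). AAAGTCA was in 1, at Foxo1, and in 3.31% of all peaks. The ETS motif CCGGAAG was in none of the 9 centres, where 695 of the 6950 peaks and 13.4% of promoter peaks held it. The forkhead motif GTAAACA was in none and in 2.68% of all peaks. The NFI palindrome, TTGGC and GCCAA set 5 bases apart, was in none and in 0.0432% of all peaks. A match gives the letters only and does not locate a binding site.

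The other genes of the same families had promoter peaks at 7 of 25, or 28% (95% Wilson interval 14.3% to 47.6%), beside the 22.9% of all protein-coding genes. By family these were 3 of 16 Sox genes, neither Foxo4 nor Foxo6, not Nfic, and 4 of 6 NR2 genes. The 5 with the widest peaks were Sox13 (984 bp), Nr2f6 (906 bp), Sox12 (640 bp), Nr2f2 (568 bp) and Sox6 (500 and 483 bp). Nr2c1 and Nr2c2, named after their values were seen, complete the 7. Some Sox subfamilies were split and others had no promoter peak. Of the SoxB1 genes only Sox2 had a promoter peak and Sox1 and Sox3 did not, whereas of the SoxC genes only Sox12 had one, over its start, and Sox4 and Sox11 did not. Of the SoxD genes Sox6 and Sox13 had one and Sox5 did not. No SoxB2 gene (Sox14 or Sox21), SoxE gene (Sox8, Sox9 or Sox10) or SoxF gene (Sox7, Sox17 or Sox18) had one. The relatives without a peak are named here after their values were seen. A peak over an annotated start was found at 4 of these 7 relatives, compared with 1 of the 6 genes above. A CpG-rich main start was present at 15 of the 25 relatives, 5 of them with a promoter peak. It was present at 9 of the 10 genes, 6 of them with one. The shares thus compare lists with unlike starts.

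The labelled cell type was set against markers of several cell types. Of 12 neural stem cell markers 7 had a promoter peak: the intermediate filament genes Nes, Gfap and Vim, the glycolytic enzyme gene Aldoc, and the regulators Id4, Hes1 and Pax6. The Aldoc peak lay 2970 bp from the nearest Aldoc start, just inside the limit of 3000 bp. The astroglial glutamate transporter gene Slc1a3 had a peak in its body only, and Fabp7, Hopx, Hes5 and Lpar1 had none. Promoter peaks were found at none of the 6 neuronal markers, none of the 5 microglial and none of the 4 endothelial ones, although Syt1, Cx3cr1 and Pecam1 had a body peak. Of the oligodendrocyte lineage markers, the transcription factor genes Olig1 and Olig2 had one, and the myelin genes Mbp, Mog and Cnp did not. Among all protein-coding genes 22.9% had a promoter peak. Finding none in the neuronal, microglial and endothelial lists, of 4 to 6 genes each, does not set them apart from that share. With so few genes a list the intervals are wide, from 32.0% to 80.7% for the neural stem cell markers and from 0% to 39.0% for the neuronal ones. These shares describe peaks and not the cells' purity. The lists also differed in how many genes had a CpG-rich main start. These were 3 of the 12 neural stem cell markers, 1 of the 6 neuronal, none of the 5 microglial and 1 of the 4 endothelial ones.

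**Figure D5:**
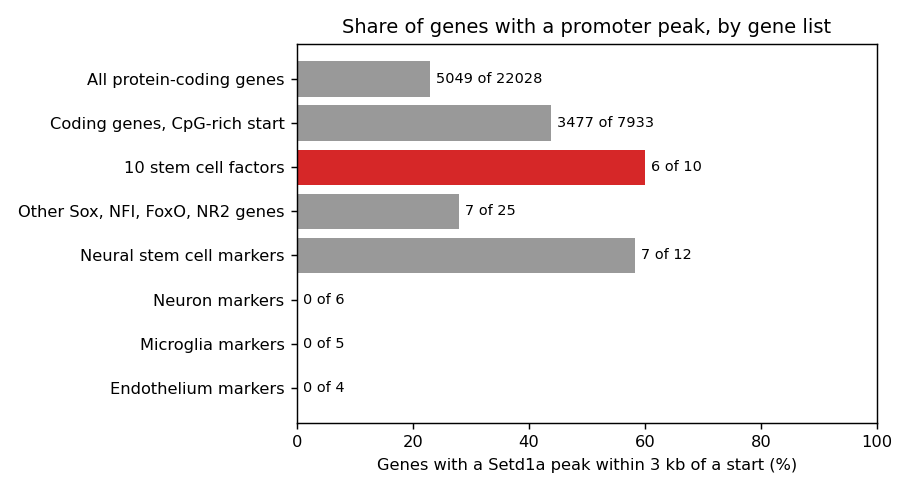
Percentage of genes with a Setd1a peak within 3 kb of an annotated start, for all protein-coding genes, those with a CpG-rich start, the 10 stem cell factors (red), their family relatives and marker lists of 4 cell types, with counts beside each bar. The 10 stem cell factors stand at 60%, next to 58.3% of the neural stem cell markers.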

How the data were processed

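Setd1a CUT & RUN libraries (2, from independent cultures) and 1 IgG library were made from quiescent cultures of adult NSCs. Per the submitters' processing notes the tools were bcl2fastq 2.17.1.14, Trimmomatic 0.32, Bowtie2 2.1.0, SAMtools 0.1.18 and MACS2 2.2.8, with build mm10. The authors trimmed the reads, kept unique alignments of sufficient mapping quality, called peaks in each Setd1a replicate at default settings and deposited those found in both as 1 list of positions in bp. Whether IgG served as the control, and which edges were kept where peaks of the replicates intersected, is not given in the sources used here. Depth per library is unknown, so no error could be given for a missing peak.

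Distances, widths, GC content and CpG ratios were taken from GENCODE M21 and the GRCm38 sequence. Distance was taken from the nearer edge of a peak and was 0 over a TSS. The CpG ratio is the number of CpGs times the length, divided by the product of C and G counts. The main start is the most upstream TSS among protein-coding transcripts tagged basic, and peaks on scaffolds were left out of comparisons of sequence. No test was run, because the 10 genes, the family, motif and marker lists were chosen with earlier results of these data known. Named by rule were all 10 genes, up to 5 relatives with the widest promoter peaks, and each marker by list, except 1 oligodendrocyte lineage marker that is not reported here, so that no share is given for that list. Further relatives were named after their values were seen, to complete the counts by family. Alternatives varied the window, the transcripts, the minimum width, merging and the assignment of peaks to genes. The interval code was tested on simulated data. The tools were pysam 0.24.0 and samtools 1.23.1 for sequence, scipy 1.17.1 for intervals of shares, numpy 2.4.6 for quantiles and matplotlib 3.10.9 for figures, under Python 3.11.15.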

Additional observations from a re-analysis of the deposited data

How the results depend on the processing

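Promoter peaks were counted at 5 or 6 of the genes under 10 alternatives. The count was 5 with a window of 1000 bp and when each peak was given to the gene of any type with the nearest TSS. The gene lost in both was Nfib, whose promoter peak lay 1516 bp from its nearest GENCODE start and 156 bp from that of Gm11266. RefSeq also lists an Nfib start 544 bp from this peak, beside others at 1516 bp and farther. The number with a peak in the window or the body was 6 under all 9 alternatives run. Giving each peak to the gene with the nearest TSS, whether of any type or protein-coding, was not run for this count. Both Nfib peaks lay nearer to a start of Gm11266 than to one of Nfib, and the Foxo1 body peak nearer to one of Gm38034 than to that of Foxo1. The number of peaks at the 10 genes was 6 to 9 under 10 alternatives: 6 with the nearest TSS of any gene, 7 with peaks of at least 300 bp, which left out the Nfib and Foxo1 body peaks, and 8 after merging. The number of peaks over a start was 1 and became 2 when peaks within 1000 bp were merged, which joined both Sox2 peaks across its GENCODE start, and 2 with the TSSs of RefSeq transcripts, an alternative chosen after seeing the data, under which the Sox2 start lies in the upstream peak. No paired analysis was possible because both replicates stand behind each interval of the list, and so neither replicate could be left out. Peak height, depth and the IgG signal at these genes were not analysed here, so weaker occupancy at Sox4, Sox9, Sox11 and Nfix could not be measured.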
